A study of Mus musculus with 23 samples.

Results

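The acute phase genes Saa1, Saa2, Saa4, Apcs and Crp were examined in whole liver of mice that had inhaled filtered air, carbon black (CB) or diesel exhaust particles (DEP). The genes were taken by symbol from the annotation of the array, which gave 5 genes with 1 feature each among 18688 features with a listed gene. All 23 mice were female C57BL/6 of 12 to 13 weeks per the labels, and each liver was hybridised to its own array. The air group held 8 mice, the CB group (Printex 90) 8 mice and the DEP group (NIST 2975, a standard reference material) 7 mice. The particle groups had inhaled 20 mg/m3 for 90 min on 4 consecutive days, the air group breathed filtered air on the same schedule, and the labels place the sampling 90 min after exposure. Liver RNA carried the red dye Cy5 and a universal mouse reference RNA, the same on every array, carried the green dye Cy3, with no exchange of the dyes. The labels name no transgene or deletion, and give the tissue as whole liver, in which fewer cells of a type and less RNA per cell cannot be told apart.

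Serum amyloid A proteins are small apolipoproteins that are carried on high density lipoprotein. SAA1 and SAA2 are the acute phase forms, which hepatocytes secrete in large amounts when interleukin-6, interleukin-1 or tumour necrosis factor reach the liver, while SAA4 is made constitutively. The pentraxins are ring-shaped plasma proteins that bind microbes, dead cells and chromatin and pass them on to complement and Fc receptors. Serum amyloid P component (Sap, the product of Apcs) is the main acute phase pentraxin of the mouse, and C-reactive protein (Crp), the classical marker in man, responds only weakly in mice. Saa3, a family member made both in liver and in other tissues, was measured on the same arrays and serves as a neighbour for comparison.

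On the mouse genome (GRCm38.p6, RefSeq) the 3 serum amyloid genes lie side by side on chromosome 7, Saa4 at chr7:46727992-46732603 (feature of transcript NM_011316), Saa1 at chr7:46740497-46743181 (NM_009117) and Saa2 at chr7:46751833-46754313 (NM_011314). Both pentraxins lie on chromosome 1, Crp at chr1:172698056-172699966 (NM_007768) and Apcs at chr1:172893961-172895054 (NM_011318). RefSeq lists Saa2 among the older names of Saa1 and Saa1 among those of Saa2. The letters of the array's probes were not among the sources used here, so the exon or UTR a feature lies in is not stated, and whether the Saa1 and Saa2 features tell the near-identical transcripts apart was not tested. The promoters are shown to compare the acute phase copies Saa1 and Saa2 with the adjacent constitutive gene Saa4. Each sequence runs 5′ to 3′ over 300 bases, from 250 bases before the start of transcription to 50 after it, with matches to a motif of C/EBP factors in capitals.
Saa1, chr7:46742931-46743230, minus strand: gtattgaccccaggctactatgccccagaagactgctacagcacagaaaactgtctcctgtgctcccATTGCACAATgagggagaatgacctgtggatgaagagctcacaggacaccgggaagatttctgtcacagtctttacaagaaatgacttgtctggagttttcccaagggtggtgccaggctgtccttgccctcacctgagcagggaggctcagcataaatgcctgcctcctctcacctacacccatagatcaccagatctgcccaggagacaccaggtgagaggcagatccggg
Saa2, chr7:46751583-46751882, plus strand: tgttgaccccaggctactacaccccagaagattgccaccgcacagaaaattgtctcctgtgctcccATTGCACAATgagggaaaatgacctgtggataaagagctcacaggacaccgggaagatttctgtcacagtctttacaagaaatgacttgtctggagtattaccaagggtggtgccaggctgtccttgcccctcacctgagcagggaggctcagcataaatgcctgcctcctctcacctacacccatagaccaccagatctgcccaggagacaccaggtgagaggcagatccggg
Saa4, chr7:46732554-46732853, minus strand: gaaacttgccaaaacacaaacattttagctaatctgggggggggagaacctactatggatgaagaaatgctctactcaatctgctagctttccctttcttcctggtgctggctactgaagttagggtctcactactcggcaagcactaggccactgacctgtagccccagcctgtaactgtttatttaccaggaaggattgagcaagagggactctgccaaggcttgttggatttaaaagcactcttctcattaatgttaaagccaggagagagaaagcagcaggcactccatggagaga

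The Saa1 and Saa2 promoters were identical at 287 of 301 aligned positions (95.3%), whereas the other pairs of the 5 promoters were identical at 43.9% to 48.9% of positions. Both held the C/EBP letters ATTGCACAAT, which begin at position −183 from the start of transcription in Saa1 and −184 in Saa2. Of 32851 mouse promoters of this length, 58 (0.177%) held this motif on either strand, with any base allowed at the A of its middle GCAC. Of the other motifs searched on both strands, TATAAA was found in Crp at position −31 and in 13.6% of all promoters. An NF-kB motif (GGG and TTTCC with any 2 bases between), the STAT motif TTCCNGGAA and GTTAAT, part of the HNF1 motif, had no match in these windows of the 5 genes. They were present in 1.63%, 1.15% and 7.1% of all promoters. The Saa3 promoter window held no match to any of these motifs, the C/EBP motif included. Only exact matches to the letters given were sought, so near matches are not counted, and a match describes the letters only.

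Over the features with a listed gene, arrays had median Cy5 signals between 262 and 549, and 13.8% to 41.9% of them were flagged absent in Cy5. All 5 hepatocyte markers (Alb, Ttr, Tat, Cps1, Trf) were bright, with Alb and Trf at the maximum of the scanner in every mouse. The labels give 6 dates of exposure, and the calendar month of the date is taken here as the exposure round. The 3 rounds were not balanced over the groups. The labelled array numbers were split here into 5 sets at gaps in the numbering. These sets were not balanced either, with no DEP mouse in the second set and no air mouse in the fifth. The first round supplied 2 air mice, 1 CB mouse and 1 DEP mouse, the second 4 air, 6 CB and 2 DEP mice, and the last 2 air mice, 1 CB mouse and 4 DEP mice, so values within rounds are given beside the differences. Precision is limited by the small number of arrays per group.

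On the Cy5 signal, Saa1 and Saa2 had the largest residual SD between mice of the 5 genes (1.45 and 1.28, against 0.74 for Saa4, 0.58 for Crp and 0.52 for Apcs), while on the log2 ratio the order was Crp 0.55, Apcs 0.47, Saa2 0.41, Saa4 0.40 and Saa1 0.37. The Cy5 spots of Saa1 and Saa2 reached the scanner's maximum of 65535 on the same 7 arrays, those of air mice 53, 442 and 443, CB mice 445 and 835052 and DEP mice 51 and 444. A saturated spot gives a lower bound on the signal. Saturation was seen in 3 of 8 air, 2 of 8 CB and 2 of 7 DEP mice, and Fisher's exact test (two-sided) gave p = 1.0 for each pair of groups. By round it was seen in 3 of 4 mice in the first, 3 of 12 in the second and 1 of 7 in the last. By array set these were air mouse 53 and CB mouse 835052 in the second and DEP mouse 51 in the third. Air mice 442 and 443 were in the fourth set, and CB mouse 445 and DEP mouse 444 in the fifth. Saa4, Apcs, Crp and Saa3 were saturated in 0 mice, and none of these 6 genes was flagged absent in Cy5 in any mouse.

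**Figure D1:**
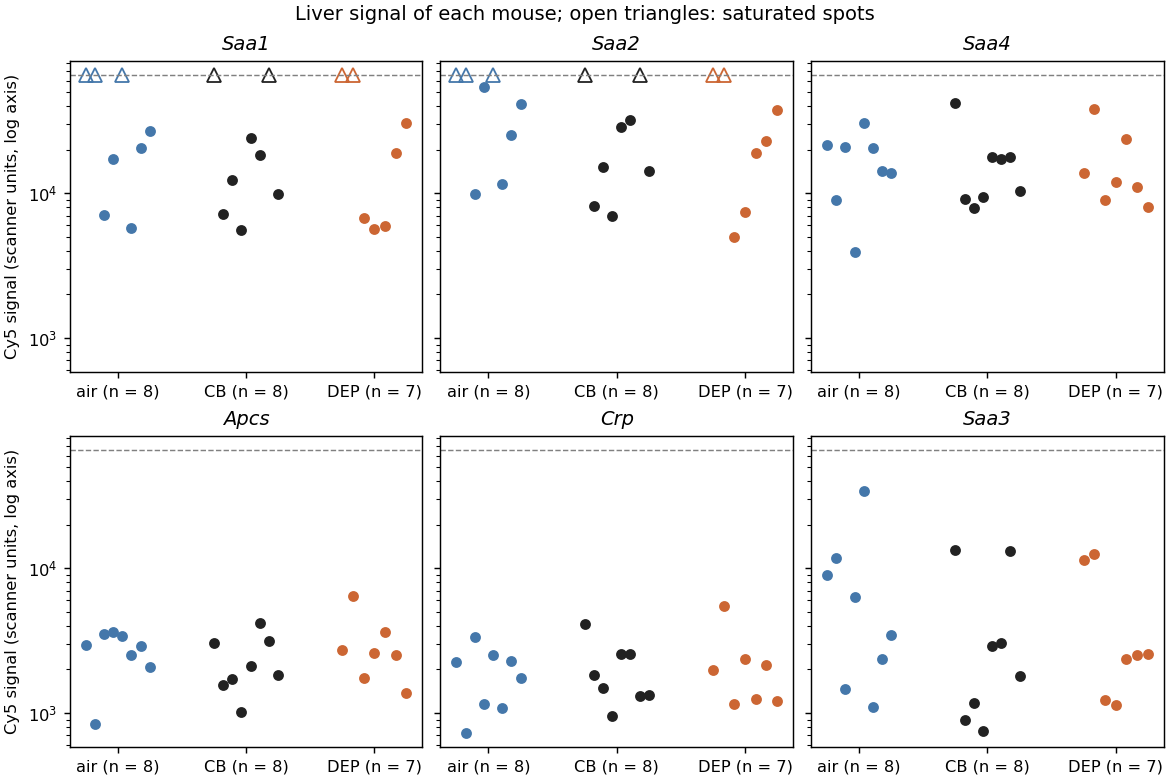
Cy5 signal of the liver sample (scanner units, log axis) for each mouse by exposure group, in 1 panel per gene. Open triangles on the dashed line at 65535 are saturated spots, which occurred in all 3 groups for Saa1 and Saa2 and in none for Saa4, Apcs, Crp and Saa3.

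For Saa1 the Cy5 signal in the air group was 5763 in the lowest mouse, 23752 at the median and 65535 or more in the highest. In the CB group it was 5583, 15406 and at least 65535, and in the DEP group 5625, 18891 and at least 65535. Each group thus spanned a wide range up to a saturated signal, at least 11.4-fold in air, 11.7-fold in CB and 11.7-fold in DEP, and the groups overlapped over nearly all of it. Between mice within the groups the log2 Cy5 signal, taken relative to the array's median, had a residual SD of 1.45, larger than that of 99.3% of all features, for which the median was 0.38.

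The log2 ratio of liver to reference, which is the scale of the comparisons below, spread far less for the same gene. It was 4.05 ± 0.50 (SD, n = 8) in air, 3.73 ± 0.34 (SD, n = 8) in CB and 3.61 ± 0.14 (SD, n = 7) in DEP, with ranges of 3.34 to 4.76, 3.22 to 4.15 and 3.41 to 3.81. The CB minus air difference in Saa1 was −0.31 (95% confidence interval −0.67 to 0.04, adjusted p = 0.873 from limma) and the DEP minus air difference −0.43 (−0.80 to −0.07, adjusted p = 0.997). Exact permutation tests (two-sided) of the same differences gave unadjusted p = 0.169 and p = 0.0423. CB and DEP differed by 0.12 (−0.25 to 0.49). In order of the mean the groups ran air, CB, DEP. The confidence intervals of CB minus air and of CB minus DEP included 0, and that of DEP minus air did not. On the Cy5 signal alone the differences were −0.35 (−1.74 to 1.03) after CB and −0.46 (−1.89 to 0.98) after DEP. With the saturated spots left out the log2 ratio differences became −0.06 and −0.33. Blocking on the exposure round gave −0.34 and −0.40. Air mouse 443, with the highest Saa1 ratio, had the array with the lowest median Cy5 signal (262) and the most absent flags (41.9%). Without this mouse the differences were −0.21 and −0.33, and without air mouse 54 they were −0.41 and −0.54. Mice of the second round alone gave −0.13 and −0.39, and those of the last, with 1 CB mouse, −0.82 and −0.42.

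Saa2, the other acute phase form, gave a Cy5 signal of 9842 in the lowest air mouse, 47943 at the median and at least 65535 in the highest. The CB group had 6980, 21924 and at least 65535, and the DEP group 4948, 22883 and at least 65535. As for Saa1, the low and the saturated mice were found in every group. The log2 ratio was 4.16 ± 0.45 (SD, n = 8) in air, 3.76 ± 0.43 (SD, n = 8) in CB and 3.96 ± 0.30 (SD, n = 7) in DEP. Differences from air were −0.39 after CB (−0.78 to −0.00, adjusted p = 0.838 from limma) and −0.19 after DEP (−0.60 to 0.21, adjusted p = 0.997), and CB minus DEP was −0.20 (−0.61 to 0.20). Groups ordered by the mean ran air, DEP, CB. The confidence intervals of DEP minus air and of CB minus DEP included 0, and that of CB minus air ended just below 0. The Cy5 signal alone differed by −0.56 (−1.78 to 0.67) after CB and −0.65 (−1.91 to 0.62) after DEP. With the saturated spots of Saa2 left out the log2 ratio differences were −0.36 for CB minus air, −0.26 for DEP minus air and −0.10 for CB minus DEP. Without air mouse 53 the DEP minus air value was −0.33, and without CB mouse 835052 the CB minus DEP value was −0.09. Mice of the second round gave log2 ratio differences of −0.29 after CB and −0.49 after DEP, and those of the last −1.06, from 1 CB mouse, and −0.37.

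The signal of Saa2 over that of Saa1 could be taken in the 16 mice with neither spot saturated. Signals of different features are not on a common scale, so the variation of this ratio between mice can be read but not its size. It was 1.29 at the median. The lowest ratio, 0.738 in DEP mouse 55, and the highest, 3.18 in DEP mouse 57, were both found in the DEP group, and air mouse 50 had 3.16.

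Saa4 is the constitutive serum amyloid, and its Cy5 signal, but not its log2 ratio, spread less between mice than that of Saa1. Its Cy5 signal was 3915, 17425 and 30805 (lowest, median and highest mouse) in air, 7933, 13750 and 42274 in CB and 7986, 12038 and 38272 in DEP. The log2 ratio was 5.08 ± 0.48 (SD, n = 8) in air, 4.62 ± 0.37 (SD, n = 8) in CB and 4.55 ± 0.32 (SD, n = 7) in DEP, and the ranges overlapped, with highest values of 5.84, 5.13 and 4.97. These were the largest differences from air among the 5 genes on this scale, −0.47 after CB (−0.85 to −0.08, unadjusted p = 0.0191 and adjusted p = 0.827 from limma) and −0.53 after DEP (−0.93 to −0.14, unadjusted p = 0.0107 and adjusted p = 0.997). By exact permutation test the unadjusted p was 0.0494 and 0.0261. Air mouse 443 had the highest Saa4 ratio and the array with the lowest median Cy5 signal (262). Without this mouse the differences from air were −0.36 and −0.43, and without air mouse 50 they were −0.55 and −0.62. CB and DEP, next to each other in the order of the means, differed by 0.07 (−0.33 to 0.46). In the liver channel alone the difference was 0.06 (−0.66 to 0.78) after CB and −0.05 (−0.79 to 0.69) after DEP. The reference channel had a log2 Cy3 signal relative to the array's median of 0.25 ± 0.62 (SD, n = 8) in air, 0.95 ± 0.44 (SD, n = 8) in CB and 0.79 ± 0.32 (SD, n = 7) in DEP, although the reference RNA was the same on all arrays. The difference in Cy3 was 0.70 after CB (exact permutation p = 0.0183, unadjusted) and 0.54 after DEP (exact permutation p = 0.0541). The Cy3 spot of air mouse 50 was flagged absent, with a relative log2 Cy3 signal of −0.83, the lowest of all mice. Mice of the second round gave log2 ratio differences in Saa4 of −0.40 after CB and −0.31 after DEP, and those of the last −0.70, from 1 CB mouse, and −0.22.

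Among the pentraxins, Apcs encodes Sap. Its Cy5 signal was 836, 2911 and 3640 (lowest, median and highest mouse) in air, 1017, 1967 and 4207 in CB and 1383, 2601 and 6394 in DEP. No group stood clear of another. The Cy3 spot of air mouse 443 was flagged absent, so the Apcs ratio of that mouse rests on a weak reference signal. The log2 ratio was 3.16 ± 0.46 (SD, n = 8) in air, 2.77 ± 0.41 (SD, n = 8) in CB and 3.16 ± 0.55 (SD, n = 7) in DEP. CB minus air was −0.38 (−0.83 to 0.06, adjusted p = 0.873 from limma), DEP minus air 0.01 (−0.46 to 0.47, adjusted p = 0.997) and CB minus DEP −0.39 (−0.86 to 0.07, adjusted p = 1.0). The CB group thus lay lowest, and neither step in the order passed the test. The Cy5 signal of Apcs alone differed by −0.14 (−0.66 to 0.37) and 0.07 (−0.46 to 0.60). Its log2 ratio differences among mice of the second round were −0.75 after CB and −0.01 after DEP, and among those of the last −0.27, from 1 CB mouse, and 0.33.

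Crp encodes the other pentraxin. Its Cy5 signal was 729, 1996 and 3366 (lowest, median and highest mouse) in air, 960, 1662 and 4128 in CB and 1158, 1973 and 5489 in DEP. The Cy3 spot was flagged absent in 4 air and 2 DEP mice, so its ratio rests on a weak reference signal there. The log2 ratio was 2.97 ± 0.52 (SD, n = 8) in air, 3.02 ± 0.61 (SD, n = 8) in CB and 2.81 ± 0.53 (SD, n = 7) in DEP, and all 3 groups overlapped. Differences were 0.05 after CB (−0.48 to 0.57, adjusted p = 0.989 from limma) and −0.16 after DEP (−0.70 to 0.38, adjusted p = 0.997), and 0.21 between CB and DEP (−0.33 to 0.75). The Cy5 signal alone differed by 0.20 (−0.38 to 0.77) and 0.15 (−0.45 to 0.74). The Cy3 signal of Crp was higher than in air by 0.28 after CB and 0.37 after DEP (exact permutation p = 0.0126 and p = 0.0118, unadjusted). For Crp the second round gave log2 ratio differences of −0.28 after CB and 0.03 after DEP, and the last −0.44, from 1 CB mouse, and −0.06.

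**Figure D2:**
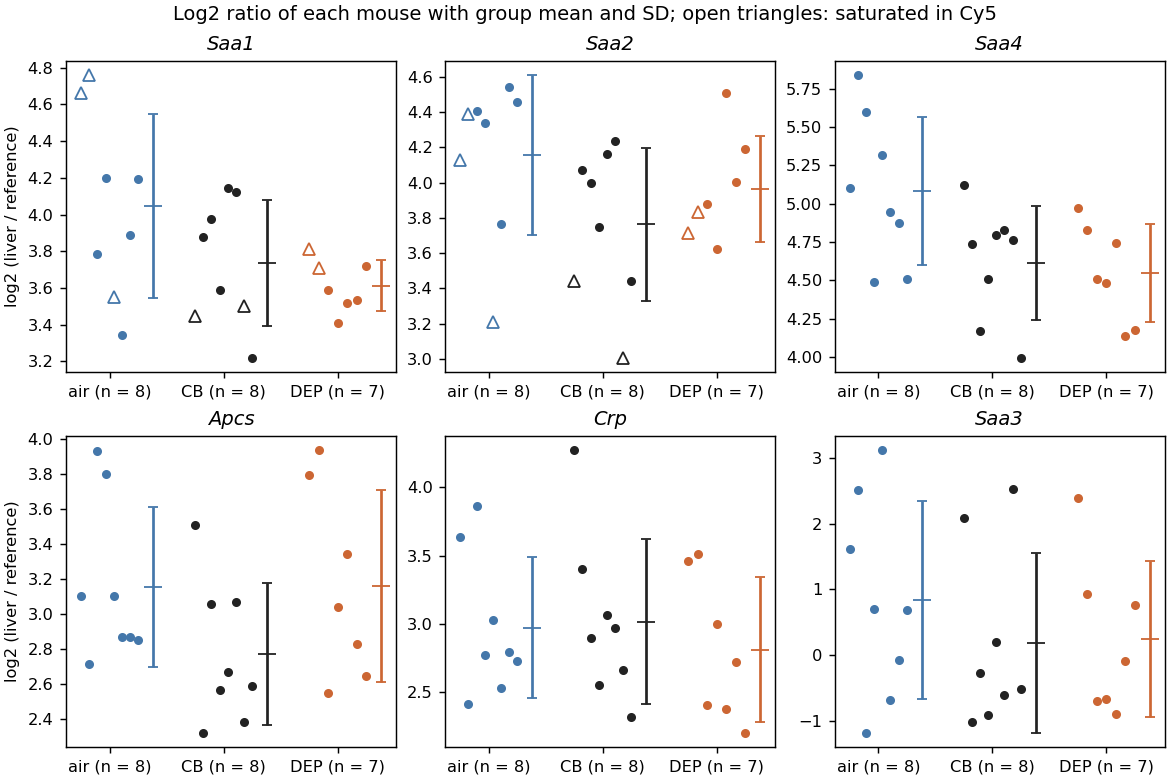
Log2 ratio of liver (Cy5) to reference (Cy3) for each mouse by exposure group, with the group mean and SD beside the points and open triangles for mice whose Cy5 spot was saturated. Each panel has its own axis. The groups overlap for every gene, and Saa3 spans 4.30 log2 units while Saa1 spans 1.54.

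Across the 5 genes, 0 passed an adjusted p of 0.05 in limma after CB, after DEP or between CB and DEP. In each comparison 0 of 18688 features passed (0%). At an unadjusted p under 0.05 there were 2 of 5 genes after CB (Saa2 and Saa4), against 1110 features (5.94%), 2 of 5 after DEP (Saa1 and Saa4), against 900 features (4.82%), and 0 of 5 between CB and DEP, against 643 features (3.44%). All of these genes were below air, and the share of features past this unadjusted threshold in that direction was 3.39% after CB, 2.53% after DEP and 1.77% for CB below DEP. This count moved with the fit. With the array set as a block it was 4 of 5 after CB (all but Crp), against 7.05% of features, and 3 of 5 after DEP (Saa1, Saa2 and Saa4), against 4.84%, and with saturated spots left out it was 1 of 5 (Saa4) after each, against 5.9% and 4.65%. Leaving out each mouse gave 0 to 3 after CB (0 without CB mouse 835436 or air mouse 443, and 3 without CB mouse 58 or 59 or air mouse 53 or 54) and 1 to 2 after DEP (1 without air mouse 442 or 443). With the array set as a block the differences after CB and DEP were −0.40 and −0.52 for Saa1, −0.45 and −0.34 for Saa2, −0.61 and −0.51 for Saa4, −0.55 and −0.15 for Apcs and −0.26 and −0.37 for Crp, and no adjusted p from limma was under 0.304. With Cy5 alone, limma gave 0 of 5 genes an unadjusted p under 0.05 in any comparison, against 4.43%, 2.5% and 2.58% of features. The log2 ratio was below that of air in 4 of 5 genes after CB (median −0.38) and in 4 of 5 after DEP (median −0.19), and the median over all features was 0.00 in both. Both comparisons share the air mice. The 5 hepatocyte markers lay below air on the same scale in 4 of 5 after CB and 5 of 5 after DEP (median −0.26 in both), with medians of 0.03 and −0.02 on the Cy5 signal. Of these markers 4 had saturated spots, 2 of them (Alb and Trf) in every mouse. Those 2 are still in the counts and medians, although their liver signal was fixed at the maximum. Their direction on the log2 ratio therefore does not describe the liver transcript. The part of the markers in the 5 genes' differences was not tested. In Cy5 alone the medians over the 5 genes were −0.14 and −0.05, with 3 of 5 below air after each. The Cy3 signal lay above that of air in 5 of 5 genes after CB and in 4 of 5 after DEP. Of 45 exact permutation tests over the 3 scales (15 on each), 3 on the log2 ratio, 0 on the Cy5 signal and 3 on the Cy3 signal had an unadjusted p under 0.05, where the same test over all features and the 3 comparisons gave 5.02%, 3.86% and 2.37%. The part of the reference channel in the log2 ratio differences was not tested further.

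**Figure D3:**
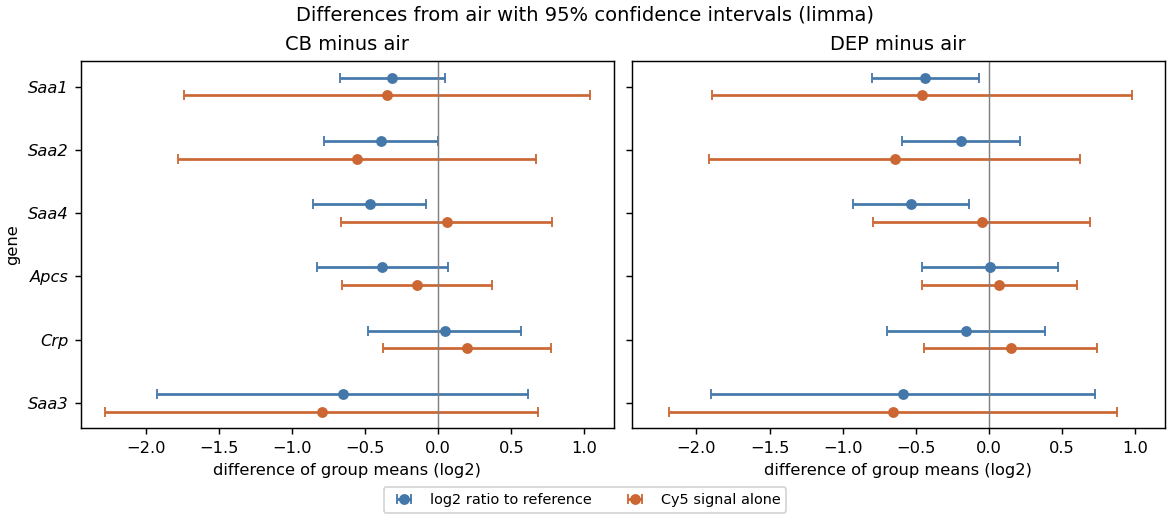
Difference of group means from air (log2) with 95% confidence intervals from limma, for the log2 ratio to the reference and for the Cy5 signal alone, after CB (left) and DEP (right). For Saa4 the log2 ratio differences of −0.47 and −0.53 stand beside Cy5 differences of 0.06 and −0.05, and the Cy5 intervals of Saa1, Saa2 and Saa3 are the widest.

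Saa3 (NM_011315, chr7:46711998-46719615) had a log2 ratio of 0.83 ± 1.51 (SD, n = 8) in air, 0.18 ± 1.37 (SD, n = 8) in CB and 0.25 ± 1.19 (SD, n = 7) in DEP. Its differences from air, −0.65 after CB and −0.59 after DEP, had adjusted p = 0.917 and adjusted p = 0.997 from limma. Its spot never saturated. The Cy5 signal ran from 755 to 34364 over the 23 mice, and in the 7 mice whose Saa1 spot was at the maximum it was 8964 to 34364, with air mouse 53 the highest.

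The 5 genes and Saa3 were compared pairwise over the 23 mice (15 pairs, Pearson's r and Spearman's rho, two-sided tests with 100000 permutations, adjusted over the pairs). The points of a pair share the array and its labelling. On the Cy5 signal alone Saa1 and Saa2 had r = 0.932 and rho = 0.942 (permutation p = 1e-05, the smallest these permutations can give, adjusted p = 5e-05). Without the 2 mice farthest from the median of the pair's first gene r was 0.913. Saa1 and Saa3 had r = 0.909 and rho = 0.886, and Saa2 and Saa3 r = 0.907 and rho = 0.943 (permutation p = 1e-05 and adjusted p = 5e-05 for both), with r = 0.884 and r = 0.909 without the 2 farthest mice. The mice with a high signal of 1 of these genes thus tended to have a high signal of the others. With the group means removed r was 0.934, 0.913 and 0.904. Within the second round (12 mice) r was 0.940, 0.942 and 0.967, and within the last (7 mice) 0.903, 0.752 and 0.815. Over the 16 mice with no saturated spot they were 0.842, 0.713 and 0.906 (permutation adjusted p = 0.000375, p = 0.00655 and p = 0.00015). On the 7 saturated arrays both spots stood at 65535, so the Cy5 values of Saa1 and Saa2 were equal there by clipping. These equal points enter the values of that pair above, except those over the 16 mice. The settings that combine the Cy5 signal with the group means or with unsaturated mice were chosen after seeing the data.

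Of the other pairs on the Cy5 signal, 1 passed. Saa4 and Crp had, in Cy5, r = 0.541 and rho = 0.385 (permutation p = 0.00729, adjusted p = 0.0273). Without the 2 mice farthest in Saa4 r was 0.349, so the value depended in part on those mice. Apcs and Crp had r = 0.482 and rho = 0.387 (permutation p = 0.0191, adjusted p = 0.0573, r = 0.253 without the 2 farthest mice). Saa4 and Apcs had r = 0.376 and rho = 0.5 (permutation p = 0.0777, adjusted p = 0.167), with r = 0.702 without the 2 farthest mice, 0.0063 in the second round and 0.940 in the last. Saa1 with Saa4, Apcs and Crp had r = 0.336, 0.149 and 0.275 (permutation adjusted p = 0.209, 0.498 and 0.271). In all, 4 of 15 pairs passed an adjusted p of 0.05 on the Cy5 signal, the fourth being Saa4 and Crp.

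On the log2 ratio the picture differed, and 2 of 15 pairs passed. Saa1 and Saa2 had r = 0.592 and rho = 0.649 (permutation p = 0.00294, adjusted p = 0.0329, r = 0.636 without the 2 farthest mice), and r = 0.634 and 0.692 within the second and last rounds. Apcs and Crp had r = 0.573 and rho = 0.561 (permutation p = 0.00439, adjusted p = 0.0329, r = 0.434 without the 2 farthest mice), and r = 0.451 and 0.771 within the rounds. This pair did not pass with the deposited log2 ratios (r = 0.517, permutation adjusted p = 0.0573). Saa1 and Saa3 had r = 0.268 (rho = 0.205, permutation adjusted p = 0.405) and Saa2 and Saa3 r = −0.391 (rho = −0.257, permutation adjusted p = 0.161), so the sign for Saa2 and Saa3 was opposite to that on the Cy5 signal. That negative r passed with the deposited log2 ratios (r = −0.610, permutation adjusted p = 0.0138) and with the group means removed (r = −0.528, permutation adjusted p = 0.0465), and turned to 0.318 with the saturated spots left out.

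**Figure D4:**
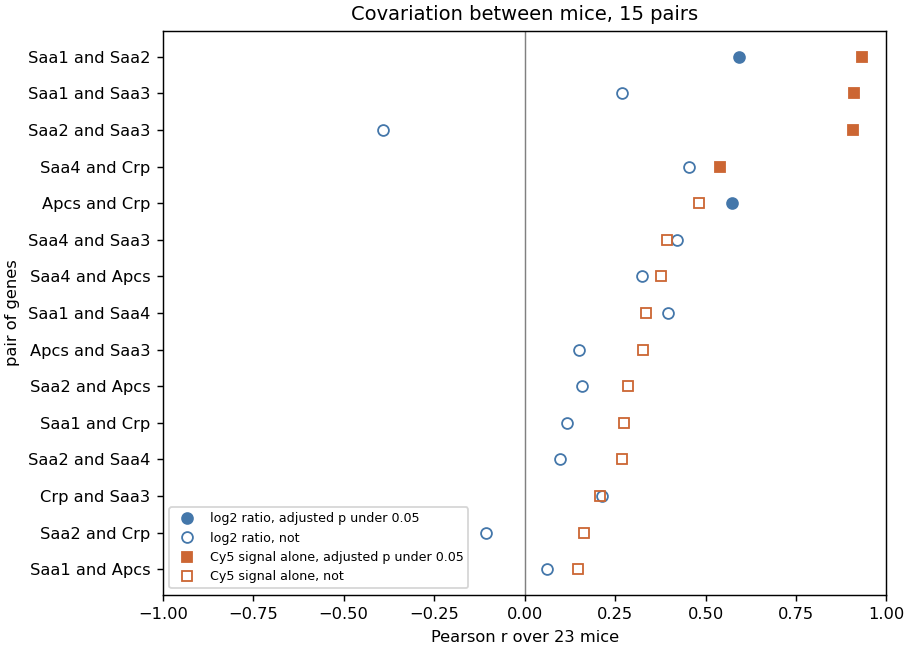
Pearson r over 23 mice for the 15 pairs of Saa1, Saa2, Saa4, Apcs, Crp and Saa3, on the log2 ratio (circles) and on the Cy5 signal alone (squares). Filled symbols passed an adjusted p of 0.05, which was the case for 2 pairs on the log2 ratio and 4 on the Cy5 signal, and the pairs of Saa1, Saa2 and Saa3 lie at 0.907 to 0.932 on the Cy5 signal only.

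The channels of the same spot were then compared. For Saa1 the Cy3 signal was correlated with the Cy5 signal over the 23 mice (r = 0.947, rho = 0.957, permutation p = 1e-05, the smallest possible, adjusted over 6 genes p = 3e-05, r = 0.936 without the 2 farthest mice). Its Cy3 signal was 460 to 1538 on the 16 unsaturated arrays and 2002 to 5724 on the 7 saturated arrays, with the same reference RNA on all. Saa2 behaved alike (r = 0.927, rho = 0.933, permutation adjusted p = 3e-05, r = 0.907 without the 2 farthest mice), with a Cy3 signal of 302 to 1985 and 2634 to 6812. For Saa4 r was 0.750 (rho = 0.666, permutation adjusted p = 0.00018) and 0.491 without the 2 farthest mice, for Crp 0.537 (rho = 0.509, permutation adjusted p = 0.0112), for Apcs 0.433 (rho = 0.362, permutation adjusted p = 0.0434) and for Saa3 0.386 (rho = 0.397, permutation adjusted p = 0.0692). The median r over all 18688 features was 0.723, so a high value is not particular to these genes, and 93.0% of features lay below Saa1, 88.2% below Saa2 and 14.4% below Saa3. The cause of the shared signal was not tested. The residual SD of the log2 ratio was 0.37 for Saa1, 0.41 for Saa2 and 1.37 for Saa3, against 1.45, 1.28 and 1.55 on the Cy5 signal.

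**Figure D5:**
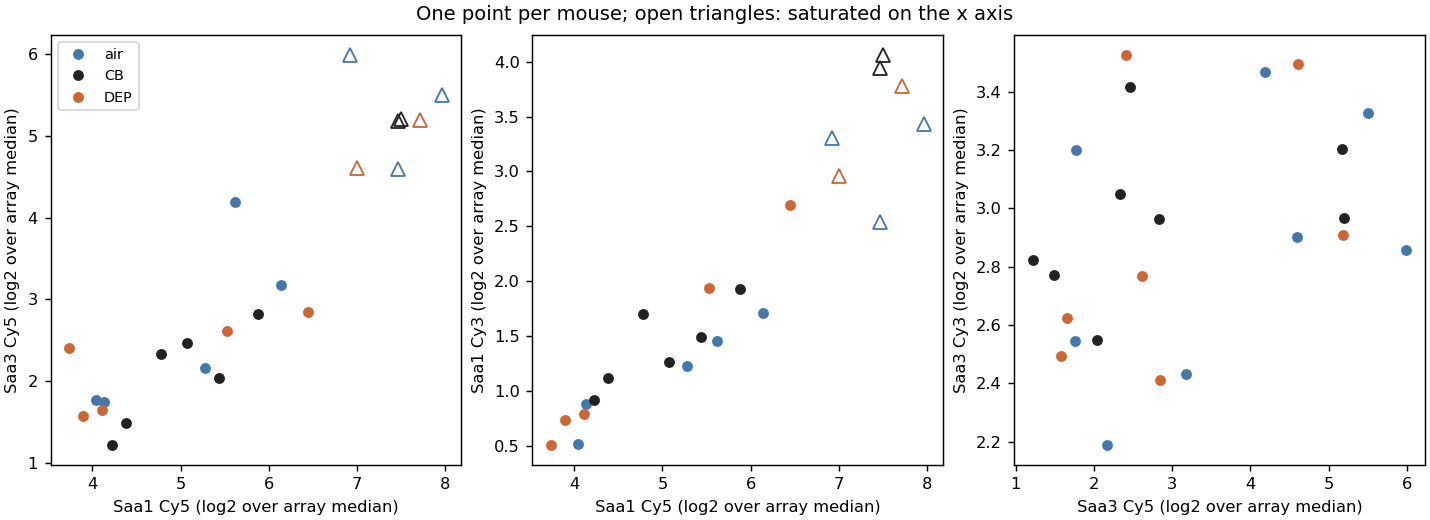
Signals relative to the array's median (log2), 1 point per mouse, with open triangles for spots saturated on the x axis. Left, Saa3 Cy5 against Saa1 Cy5 (r = 0.909), middle, Cy3 against Cy5 of the Saa1 spot (r = 0.947), right, Cy3 against Cy5 of the Saa3 spot (r = 0.386).

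The genes whose log2 ratio was most like that of each member were sought among the 7010 or 7011 features with no saturated and no absent Cy5 spot on any array, by Pearson's r over the 23 mice, as a description of points that share arrays. The Cy5 spots of Saa1 and Saa2 were themselves saturated on 7 of these arrays, where their ratios rest on a clipped Cy5 signal. Saa1 was nearest to Folr1 (a folate receptor, r = 0.781), Slc45a4 (0.769) and Sgce (a sarcoglycan, 0.748). Saa2 was nearest to Gtf2h1 (a subunit of the transcription factor TFIIH, 0.725), Chad (chondroadherin, 0.684) and Lamb2 (a laminin chain, 0.678). Gtf2h1 lies 41780 bases beyond Saa2 on chromosome 7 (chr7:46796094-46823800), and a relation of position to the correlation was not tested. Saa4 was nearest to Tkfc (a kinase of fructose metabolism, 0.880), Pipox (an oxidase of pipecolic acid and sarcosine, 0.877) and Ang2 (a ribonuclease, 0.837). Apcs was nearest to Klk1b5 (a kallikrein, 0.854), Cyp4a31 (a fatty acid hydroxylase, 0.826) and Slc22a26 (an organic anion transporter, 0.824). Crp was nearest to Sprr2k (0.853), Golt1a (0.836) and Pla2g12b (a phospholipase A2 family member, 0.834).

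The rest of the pathway was read from lists of its parts, and in each list 0 genes passed the test in either direction after CB or DEP. Of the 8 measured cytokines that induce serum amyloids, Il1b had the smallest p, with a log2 ratio difference of 0.65 after CB (adjusted p = 0.816 from limma) and 0.49 after DEP (adjusted p = 0.997). Il6, the main inducer, differed by 0.32 and 0.20 (adjusted p = 0.931 and adjusted p = 0.997 from limma) and was flagged absent in Cy5 in 6 mice. Tnf differed by 0.02 and −0.17, and Clcf1, a cytokine of the interleukin-6 family, by −0.14 and −0.14. The list's median difference was −0.02 after CB and 0.04 after DEP.

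Of the 11 receptors and signalling genes, Tyk2 (a kinase bound to the interleukin-6 receptor chain gp130) differed by 0.28 after CB (adjusted p = 0.827 from limma) and 0.16 after DEP, Socs3, the feedback inhibitor of that pathway, by −0.29 and −0.29, and Il1r1, the receptor of interleukin-1, by −0.27 and −0.16. The list's medians were 0.02 and −0.10. Among the 8 transcription factors measured, 6 lay below air after CB and 5 after DEP, with medians of −0.09 and −0.13. Cebpd, a C/EBP factor of acute phase promoters, differed by −0.14 and −0.41 (adjusted p = 0.955 and adjusted p = 0.997 from limma), Cebpb by −0.15 and −0.30 and Stat3, which interleukin-6 activates, by −0.08 and −0.21.

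Partners of the proteins gave no call either. Of 9 partners of serum amyloid A, the main apolipoprotein of high density lipoprotein, Apoa1, was saturated on 20 arrays and Apoa2 on all 23, and no fold change is given for either. Lcat, which esterifies cholesterol in these particles, differed by −0.52 (adjusted p = 0.827 from limma) and −0.24. Of 7 measured partners of the pentraxins, the complement chain C1qa differed by −0.31 and −0.13, the Fc receptor Fcgr2b by −0.19 and −0.29 and Fcgr1, flagged absent in 8 mice, by −0.03 and 0.28. Of the other pentraxins, Ptx3 was flagged absent on 23 arrays and Nptx1 on 22, and Nptx2 differed by −0.17 and 0.06.

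The 15 other acute phase proteins of liver lay below air in 13 genes after CB (median −0.20) and in 13 after DEP (median −0.18) on the log2 ratio, where the median of all features was 0.00, and 0 passed the test. An unadjusted p from limma under 0.05 was found in 5 of 15 genes after CB, against 5.94% of all features. After DEP it was found in 4 of 15, against 4.82%. On the Cy5 signal alone the medians were −0.04 and −0.02. Of these genes 9 had a saturated spot in at least 1 mouse, and Hp (haptoglobin) and Fgb (a fibrinogen chain) were saturated in all mice, so that no fold change is given for them. These 2 genes are still in the counts and medians above, although their liver signal was fixed at the maximum. Their direction on the log2 ratio therefore does not describe the liver transcript. Hamp, which encodes the iron hormone hepcidin, was saturated in 7 mice and differed by −0.65 after CB (adjusted p = 0.298 from limma) and −0.46 after DEP (adjusted p = 0.997).

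Markers of hepatocytes and of other cells were set beside the Saa1 values. The summed Cy5 signal of the hepatocyte markers, a lower bound for saturated spots, was 178252 to 283482 in air, 202605 to 284547 in CB and 216203 to 296155 in DEP. The mean log2 Cy5 signal of these markers had r = 0.091 with Saa1, and 4 of the 5 markers had saturated spots. The summed Cy5 signal of 5 neutrophil markers was 1219 to 2635 in air, 1159 to 3669 in CB and 1210 to 3881 in DEP, and 3 of them (S100a8, Ngp and Camp) were flagged absent on most arrays. Their mean log2 Cy5 signal had r = 0.499 with Saa1 over the 23 mice, and S100a9 alone 0.497. The 4 Kupffer cell markers summed to 10860 to 32824 in air, 8964 to 44181 in CB and 9231 to 48582 in DEP. Their mean log2 Cy5 signal had r = 0.117 with Saa1, and that of lymphocyte, endothelial and pancreatic markers had r = 0.012, 0.059 and −0.053. These are descriptions over mice that share arrays with Saa1, and the part of neutrophils in the Saa1 signal was not tested.

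The exposure round was compared in a fit with group and round, as last minus second round. No member passed the test, with differences of −0.15 for Saa1, 0.17 for Saa2, −0.32 for Saa4, −0.22 for Apcs and −0.39 for Crp (adjusted p = 0.812 to 0.925 from limma). In this comparison 0 of 18688 features passed (0%), and 1203 (6.44%) had an unadjusted p under 0.05, among them 0 of the 5 genes.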

How the data were processed

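Liver RNA of 23 mice was measured on 2-colour oligonucleotide arrays. The authors deposited, for each spot and channel, a linear intensity without background subtraction, a mark for spots near background (absent), and a log2 ratio normalized by lowess in R 2.4.1 (per the labels' processing notes). The series table held the same deposited log2 ratios.

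Here log2 ratios were made from the intensities by within-array loess and fitted for all groups in 1 model with limma 3.58.1 in R 4.3.3 (lmFit, eBayes), with Benjamini-Hochberg adjustment over 18688 features with a listed gene. The other 3887 of 22575 features were left out. No filter on signal was used. The Cy5 scale is log2 intensity minus the array's median, and 65535 was taken as saturated. Single differences were compared by two-sided exact permutation tests (scipy 1.17.1), and promoters were aligned with Biopython 1.88. Named list genes are up to 3 per list with the smallest p in either comparison with air, and Il6, S100a8, S100a9, Ngp and Camp were named after their values were seen. The members and lists were chosen with earlier results of these data known. The fit was tested on simulated data. The study's methods give a slightly different age and sampling time from the labels. Alternatives were other normalizations, filters, blocks, single rounds, array weights, the Fs test of the study's methods and leaving out each mouse.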

Additional observations from a re-analysis of the deposited data

Results flagged for a closer look

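Of 45 sets of values tested (5 genes, 3 groups and the log2 ratio, Cy5 and Cy3 scales), 2 held a mouse far from the others of its group, and chance alone gives about 1 in 20. The log2 Cy5 signal of Saa4 relative to the array's median was 6.83 in CB mouse 445, where the next CB mouse had 5.61. The log2 Cy3 signal of Apcs relative to the array's median was 1.27 in CB mouse 835052, where the next had 0.12. The causes were not tested.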

How the results depend on the processing

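No paired analysis was possible because mouse numbers name single mice and no number is shared between groups. Each of the 5 genes has 1 feature, so a mean over features gives no separate value. In 540 alternative fits of the 5 genes, those without each mouse included, 1 passed the test, Saa4 after CB with median centring in place of loess (−0.75, adjusted p = 0.0358 from limma), where the median over all features shifted by −0.11. The count of features called after CB, 0 in the report, was 285 with median centring (15 higher), 50 in the last round alone (41 higher, 1 CB mouse), 1 with array weights and 0 to 1 without each mouse (1 without CB mouse 59 or air mouse 442), and between CB and DEP it was 100 in the last round alone (76 higher). After DEP, and between CB and DEP, it was 0 without each mouse. Deposited lowess ratios, the Cy5 signal, normexp, the filter on dim features (13960 left), leaving out saturated spots, the round, array set or exposure day as a block, the second round and the Fs test gave 0 calls in each comparison.

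Several differences changed sign. The difference of Saa4 after CB, −0.47 in the report, was 0.057 on the Cy5 signal. For Crp after CB (0.05 in the report) the value was −0.032 with deposited ratios, −0.19 with median centring, −0.043 with normexp, −0.0083 with the round as a block, −0.26 with the array set as a block, −0.28 in the second round, −0.44 in the last, −0.0070 with array weights and −0.13 to 0.17 without each mouse. For Apcs after DEP (0.01) it was −0.024 with deposited ratios, −0.12 with median centring, −0.021 with normexp, −0.15 with the array set, −0.0056 in the second round and −0.12 to 0.12 without each mouse. For Crp after DEP it was 0.15 on the Cy5 signal and 0.027 in the second round. Between CB and DEP, Saa1 gave −0.091 with median centring and −0.40 in the last round, Saa2 gave 0.090 on the Cy5 signal and 0.20 in the second round, and Crp gave −0.30 and −0.39 in the second and last rounds. Saa4 gave −0.11 with median centring, −0.073 with the round and −0.11 with the array set as a block, −0.093 and −0.48 in the second and last rounds and −0.0068 to 0.15 without each mouse. For the last minus the second round the Cy5 signal gave 0.21 for Saa1 and 0.025 for Saa4.

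Of 15 pairs, 2 passed on the log2 ratio, 4 on the Cy5 signal, 4 on the Cy5 signal of unsaturated spots and 5 on the Cy5 signal with group means removed, the last 2 settings having been added after seeing the data. The sign of r turned for Saa1 and Saa3 with deposited ratios (−0.0859), for Saa2 and Saa4 with group means removed (−0.0957), and for Saa2 and Crp and Saa2 and Saa3 with saturated spots left out (0.272 and 0.318), on the Cy5 signal (0.164 and 0.907) and on the Cy5 signal with group means removed (0.206 and 0.904). On the Cy5 signal of unsaturated spots it turned for Saa1 and Saa4 (−0.402), Saa1 and Apcs (−0.184), Saa2 and Saa4 (−0.318) and Saa2 and Saa3 (0.906). The causes were not tested. Saturation limits Saa1 and Saa2 in 7 mice, and a weak reference signal limits Crp in 6 mice, Saa4 in 1 and Apcs in 1.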

Other observations

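The nearest genes were also sought on the Cy5 signal alone, a scale chosen for this purpose after seeing the data. Besides Saa3, Saa1 was nearest to Lcn2 (lipocalin 2, an iron-scavenging acute phase protein, r = 0.766 over 23 mice) and Slc39a14 (a zinc and iron importer of hepatocytes, 0.697), and Saa2 to Lcn2 (0.819) and Cxcl1 (a chemokine for neutrophils, 0.724). Lcn2 had a Cy5 signal of 393 to 3564, was never saturated and differed by 0.04 after CB and −0.09 after DEP on the log2 ratio (adjusted p = 0.993 and adjusted p = 0.997 from limma). The nearest genes to Saa4 (Cmtm6, Tifa and Mlx, r = 0.848 to 0.876), to Apcs (Prcp, Nrn1 and Atp5b, 0.857 to 0.896) and to Crp (Casp2, Psmc6 and Rbm4, 0.842 to 0.848) shared no name with each other or with those lists. These are descriptions over mice that share arrays, and Saa1 and Saa2 were saturated on 7 of these arrays.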
